A study of Rattus norvegicus with 6 samples.

Results

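Ldha, Cyp2e1 and Nat1 encode 3 metabolic enzymes, one of lactate formation and 2 of the handling of foreign compounds, and their transcripts were measured in pancreatic islets from the head and from the tail of the rat pancreas. The genes were taken by the array maker's catalogue probes A_44_P210461 (Ldha, NM_017025), A_44_P409232 (Cyp2e1, NM_031543) and A_44_P276435 (Nat1, NM_053853). They are 3 of 38804 probes other than controls. Gene symbols were looked up for the 50 catalogue probes only, and these are 3 of the 30 that could be paired with a single symbol. Each was printed in 10 spots on each array. The 38804 probes filled 41800 spots and the 50 catalogue probes 500 of them, so most other probes had 1 spot. What those other probes match was not looked up. Percentiles and shares over all probes below are set against such unnamed probes, mostly of 1 spot. Islets of male Rattus norvegicus, of a strain not stated in the labels, were freed by collagenase perfused through the common bile duct. Each pancreas had been divided into a duodenal (head) and a splenic (tail) part, and the labels name no further treatment and no altered allele. There were 3 head and 3 tail samples, each on 1 single-colour array. Their titles number them 1 to 3 in each region and carry the prefix 24W, which the labels do not explain. They are called head 1 to 3 and tail 1 to 3 here. How many animals stand behind a sample is not stated, so each p-value speaks only of the spread among these arrays, which may be technical.

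Lactate dehydrogenase A, the product of Ldha, turns pyruvate into lactate and returns NAD+ to glycolysis. Beta cells, the insulin-secreting cells that make up most of an islet, are known to keep this enzyme low, so that pyruvate from glucose goes to the mitochondria. Cyp2e1 is a haem enzyme of the endoplasmic reticulum that oxidises ethanol, acetone and other small molecules and is best known from the liver. Nat1 is a cytosolic arylamine N-acetyltransferase, which moves an acetyl group from acetyl-CoA onto aromatic amines.

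The sequence in front of the genes is shown so that it can be read side by side. Their means were all higher in head islets, but no difference passed the test. Shared control of the genes was not tested. RefSeq (build GRCr8) held a window for 2 of the 3 genes, Ldha and Cyp2e1, both on the plus strand. The 250 bases before the annotated start are given 5′ to 3′, at chr1:106507842-106508091 for Ldha and chr1:205269717-205269966 for Cyp2e1. Capitals mark matches, on either strand, to ACGTG (the core of the hypoxia-inducible factor site), TGACGTCA (the cyclic AMP response element), CCGCCC (the GC box), CCAAT and TATAAA (the TATA box).
Ldha promoter: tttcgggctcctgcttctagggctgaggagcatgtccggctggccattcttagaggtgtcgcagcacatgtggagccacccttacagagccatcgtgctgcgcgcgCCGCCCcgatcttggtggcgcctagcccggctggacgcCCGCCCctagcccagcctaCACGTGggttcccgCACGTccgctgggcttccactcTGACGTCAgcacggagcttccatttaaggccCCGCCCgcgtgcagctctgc
Cyp2e1 promoter: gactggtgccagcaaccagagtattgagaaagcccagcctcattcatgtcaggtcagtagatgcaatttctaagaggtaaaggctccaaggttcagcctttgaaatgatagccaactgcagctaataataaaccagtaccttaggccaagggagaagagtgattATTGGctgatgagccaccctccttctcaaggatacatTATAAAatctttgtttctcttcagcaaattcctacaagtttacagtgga

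The windows were unlike each other in base composition. That of Ldha was 66.4% G or C with 22 CpG dinucleotides, and that of Cyp2e1 was 42.8% G or C with 0, against medians of 51.2% and 5 over 33465 RefSeq windows of the same length. In the Ldha window ACGTG matched 3 times, at 87 to 83, 86 to 82 and 73 to 69 bases before the start, the first 2 being the overlapping strands of 1 palindrome. TGACGTCA matched once, at 51 to 44 bases, and CCGCCC 3 times. The Cyp2e1 window held TATAAA at 49 to 44 bases and CCAAT, on the minus strand, at 86 to 82 bases before the start. Of all windows 16.6% held ACGTG, 1.59% TGACGTCA, 30.5% CCGCCC, 34.0% CCAAT and 12.9% TATAAA. These are matches of letters. No binding was measured here.

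The 75th percentile of the probe signal, in arbitrary fluorescence units, lay between 114 and 264 on the 6 arrays, and between 78.2% and 86.4% of probes were well above background. Tail 1 stood apart from the other tail arrays in this brightness, at 264 against 114 and 117. It was nearer to head arrays 1 to 3, which stood at 203, 207 and 259. The difference of each gene is given with and without tail 1. Levels are log2 signal minus the log2 75th percentile of the same array, so 0 is a probe at that percentile. On this scale the median head minus tail difference over 32182 tested probes was -0.23, and 38.8% of them had the higher mean in the head. In the limma fit 0 of the 32182 probes (0%) passed an adjusted p of 0.05, and 6168 (19.2%) had an unadjusted p under 0.05. The 3 tail arrays shared an identifier of the scan, head 1 had another, and head 2 and 3 shared a further one. Head and tail therefore cannot be compared within a scan identifier, which is taken here to stand for the slide. None of 36 marker entries for islet cell types and other cells was among the named catalogue probes, and other probes were not looked up. The identity of the islets and the share of other cells were therefore not checked. In whole islets, fewer cells of a type and less RNA per cell cannot be told apart.

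Ldha was detected on every array, with all 10 spots well above background. On the log2 scale its level was -0.96, -0.53 and 0.015 on tail arrays 1 to 3, in that order. On head arrays 1 to 3 it was 0.31, -0.012 and 0.68. The head arrays were the higher ones except that tail 3 lay level with head 2, so the regions overlapped, by 0.027 log2 units. The head mean was 0.33 ± 0.35 and the tail mean -0.49 ± 0.49 (SD, n = 3 each). The head level was thus 1.76-fold the tail level (log2 difference 0.82, SE 0.35). This did not pass the test (limma adjusted p = 0.26), and the exact permutation test, two-sided, gave p = 0.2 where 3 arrays against 3 cannot go below 0.1. Without tail 1 the difference was 0.58 (SE 0.32, limma adjusted p = 0.202).

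Among all probes of its own array, Ldha lay at percentiles 66.3, 69.8 and 75.2 on tail arrays 1 to 3 and at percentiles 77.2, 74.9 and 79.6 on head arrays 1 to 3. It was thus among the brighter probes of every array in both regions. The median spot signal was 138, 79.9 and 116 units on the tail arrays and 251, 211 and 419 on the head arrays, before any scaling. In these unscaled signals the regions did not overlap, and the overlap of the scaled values came with dividing by the 75th percentile, which was 117 on tail 3 and 207 on head 2. The spots of an array had an SD of 0.051 to 0.13 log2 units, which covers technical noise within an array only.

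Cyp2e1 was also well above background in all 10 spots of every array, but close to it on the tail arrays. Tail 1 stood at -4.78 on the log2 scale, tail 2 at -3.31 and tail 3 at -3.11. Head 1 stood at -2.97, head 2 at -2.67 and head 3 at -2.91. The head arrays lay within 0.30 log2 units of each other and above every tail array, while the tail arrays spread over 1.67, with tail 1 far below the other two. The head mean was -2.85 ± 0.16 and the tail mean -3.74 ± 0.91 (SD, n = 3 each), a head level 1.85-fold the tail level (log2 difference 0.89, SE 0.44). It did not pass the test (limma adjusted p = 0.292), and the exact permutation p was 0.1, the smallest that this design allows. Without tail 1 the difference fell to 0.36 (SE 0.23, limma adjusted p = 0.246). With normexp background correction and quantile normalization together it was 0.29, against 1.25 with quantile normalization alone. An offset added to every signal narrows log2 differences among dim ones. The normexp choice also started from another spot signal, and the part of either in the lower value was not tested.

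The unscaled signals of Cyp2e1 told the regions apart more evenly than the scaled ones. The median spot signal was 9.83, 11.5 and 14.1 units on tail arrays 1 to 3, and 25.9, 33 and 35.3 units on head arrays 1 to 3. The raw spot brightness, before the background was subtracted, was 1.75 to 1.94 times the local background on the tail arrays and 3.28 to 4.04 times on the head arrays. The local background itself was somewhat higher in the tail, at 15 to 15.5 units over all spots against 12.5 to 14 in the head, and its part in the result was not tested. In rank, Cyp2e1 lay at percentiles 19.8, 34.1 and 36.3 on the tail arrays and at percentiles 44.2, 47.8 and 44.4 on the head arrays. It was thus a dim probe everywhere, below the middle of its array.

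Nat1 was well above background in all 10 spots of every array. The tail arrays 1 to 3 gave log2 levels of -0.95, -1.33 and -1.15, and the head arrays 1 to 3 gave -0.50, -0.82 and -0.33. Every head array was above every tail array, by at least 0.13 log2 units, and both regions were tight. The head mean of -0.55 ± 0.25 and the tail mean of -1.14 ± 0.19 (SD, n = 3 each) made a head level 1.51-fold the tail level (log2 difference 0.59, SE 0.27). It did not pass the test (limma adjusted p = 0.271), with an exact permutation p of 0.1. Without tail 1 the difference was 0.69 (SE 0.26, limma adjusted p = 0.0915), larger than with it, unlike those of Ldha and Cyp2e1.

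Nat1 lay at percentiles 66.5, 60.6 and 62.6 on tail arrays 1 to 3 and at percentiles 71.0, 67.8 and 72.4 on head arrays 1 to 3, so in rank too the regions were apart. Its unscaled median spot signal was 130, 45.2 and 52.3 units on the tail arrays and 145, 118 and 203 on the head arrays. Here it was the unscaled signals that overlapped, since tail 1 exceeded head 2. The rat has further Nat genes of related sequence, Nat2 and Nat3, and whether the probe also binds their transcripts was not tested.

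**Figure D1:**
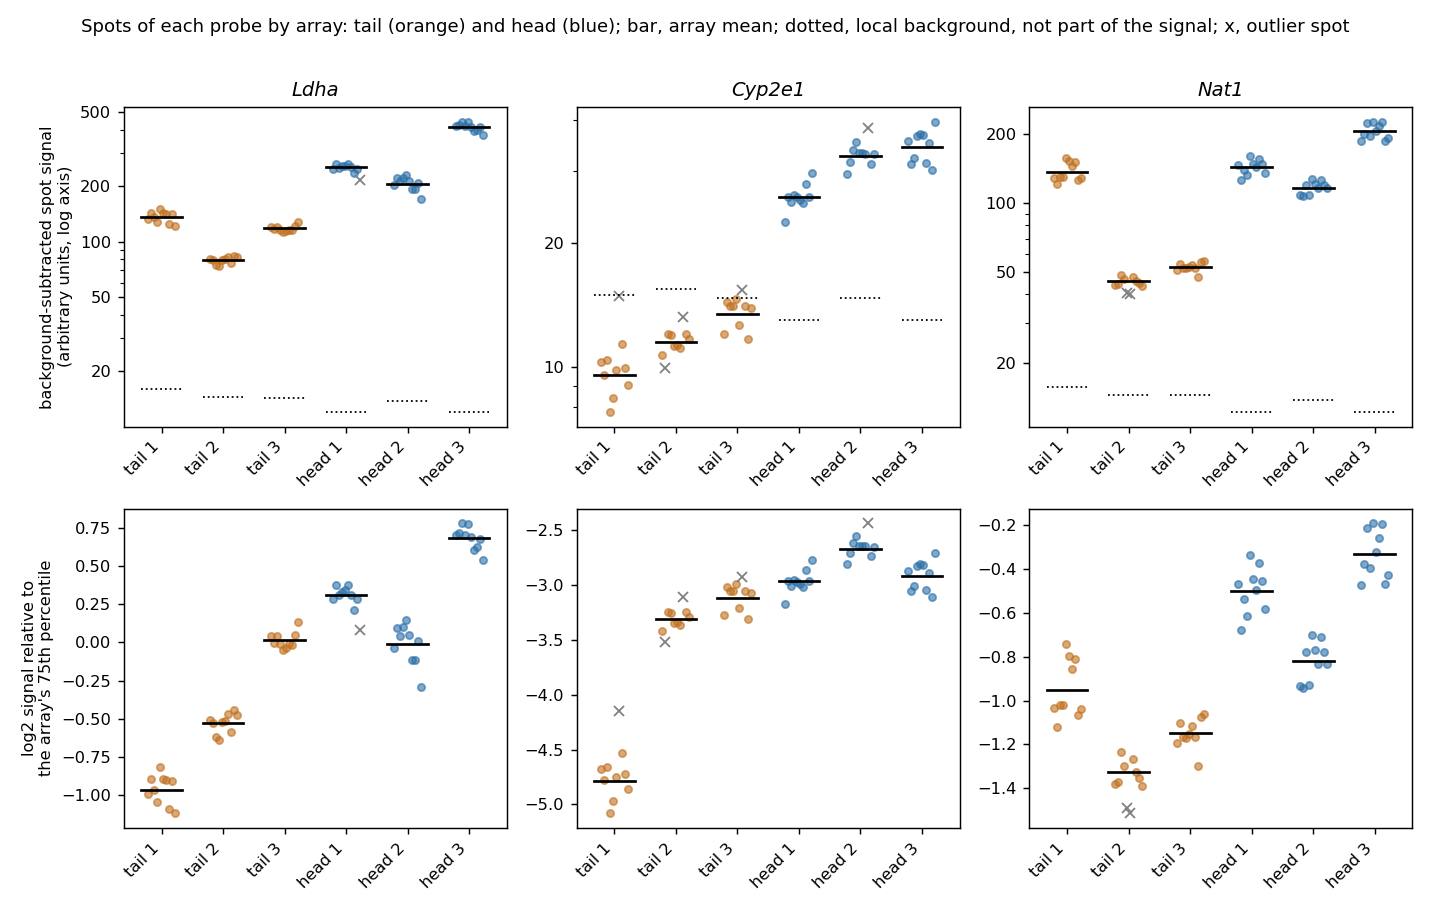
Spots of the Ldha, Cyp2e1 and Nat1 probes on each array (tail orange, head blue), as background-subtracted signal in arbitrary units on a log axis (top) and on log2 after subtracting each array's 75th percentile (bottom). Bars are array means of the spots used, crosses are outlier spots left out, and dotted lines are the local background, which is not part of the signal. The median spot of Cyp2e1 lies between 9.83 and 14.1 units on the tail arrays and between 25.9 and 35.3 on the head arrays, and after scaling tail 1 stands at -4.78.

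Arrays of the same number were taken as pairs, since each pancreas gave both parts. The numbers come from the titles, so that a pair shares a pancreas is an assumption. In each of the 3 pairs the head array was the higher one for Ldha, for Cyp2e1 and for Nat1. Of all tested probes 17.6% had a higher head array in all 3 pairs, 21.8% after quantile normalization and 13.7% without scaling. The difference for Ldha was 1.27, 0.52 and 0.67 log2 units in pairs 1, 2 and 3. For Cyp2e1 it was 1.82, 0.65 and 0.20, and for Nat1 0.45, 0.51 and 0.82. Pair 1 was therefore the widest for Ldha and Cyp2e1 and the narrowest for Nat1. Outlier spots left out, every head spot of a pair lay above every tail spot for Ldha, by 0.15 to 1.03, and for Nat1, by 0.068 to 0.59. For Cyp2e1 the spots of pair 3 overlapped, by 0.11, while those of pairs 1 and 2 were apart by 1.36 and 0.44. The Cyp2e1 spots left out were the brightest of tail 1 to 3, at -4.14, -3.11 and -2.92, the dimmest of tail 2 and the brightest of head 2. With them the gaps of pairs 1 and 2 would be narrower and the overlap of pair 3 wider. Fitted with the replicate number as a block, the SE was 0.26 for Ldha, 0.33 for Cyp2e1 and 0.22 for Nat1, and the limma adjusted p was 0.0942, 0.118 and 0.12, so no call changed.

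The size of the pair differences depended on how the arrays were scaled. Without scaling, the 3 pairs of Cyp2e1 were nearly equal, at 1.43, 1.5 and 1.35, whereas those of Nat1 spread from 0.07 to 1.97 and those of Ldha from 0.89 to 1.82. The median difference of all tested probes was then 0.31, against -0.23 with scaling to the 75th percentile, -0.059 after quantile normalization and 0.034 after median centring. After quantile normalization the pairs of Ldha were 1.23, 0.59 and 0.59, those of Cyp2e1 2.09, 1.04 and 0.61, and those of Nat1 0.47, 0.67 and 0.99. In the authors' deposited table the mean head minus tail difference was 0.81 for Ldha, 1.22 for Cyp2e1 and 0.74 for Nat1. Under 1 scaling a pair turned sign: with the 75th percentile taken over probes well above background on all arrays, pair 3 of Cyp2e1 was -0.038. The regions of Cyp2e1 then overlapped. Those of Ldha came apart after median centring, where its difference was 1.08.

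**Figure D2:**
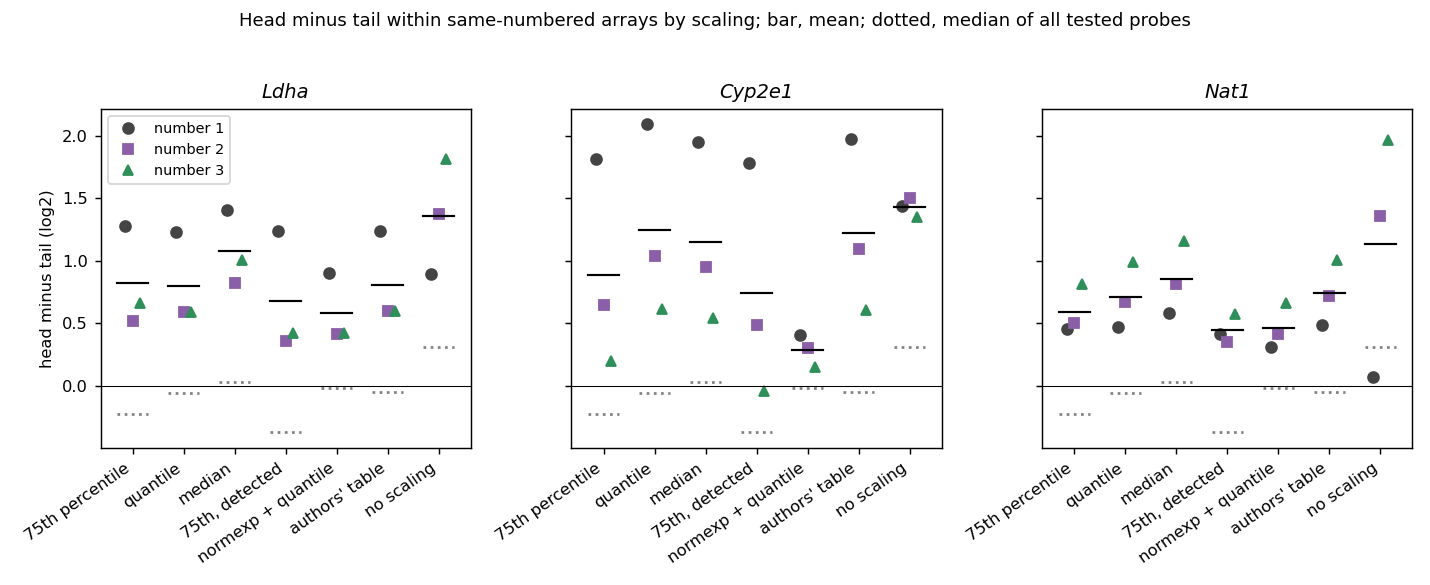
Head minus tail difference (log2) of Ldha, Cyp2e1 and Nat1 within the arrays numbered 1, 2 and 3, under 7 scalings (the 75th percentile over all probes or over probes well above background on all arrays, quantile, median, normexp with quantile, the authors' deposited table, and none); bars are the mean difference and dotted lines the median difference of all tested probes. The exceptions to points above both 0 and the dotted line are number 3 of Cyp2e1 with the percentile over detected probes, at -0.038, and number 1 of Nat1 without scaling, at 0.07 under a median of 0.31.

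Set among all tested probes, the differences of these genes lay in the upper part of the distribution without being extreme. The difference of Ldha was larger than those of 93.0% of tested probes, that of Cyp2e1 than 94.4% and that of Nat1 than 85.8%. Without tail 1 these shares were 77.8%, 71.6% and 80.9%. Of the 3 genes 2, Cyp2e1 and Nat1, had every head array above every tail array, as 5.09% of all probes did. The same 2 genes did so after quantile normalization, where 6.41% of all probes did, and Ldha and Cyp2e1 did so without scaling, where 5.72% did. Probes of the catalogue leaned the same way, since 22 of the 27 named and tested ones had the higher mean in head islets. Over these 27 genes the median was 0.52, and in descending order of difference Cyp2e1 had rank 4, Ldha rank 6 and Nat1 rank 13. A higher head mean was thus common among the named genes and is not particular to these enzymes.

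**Figure D3:**
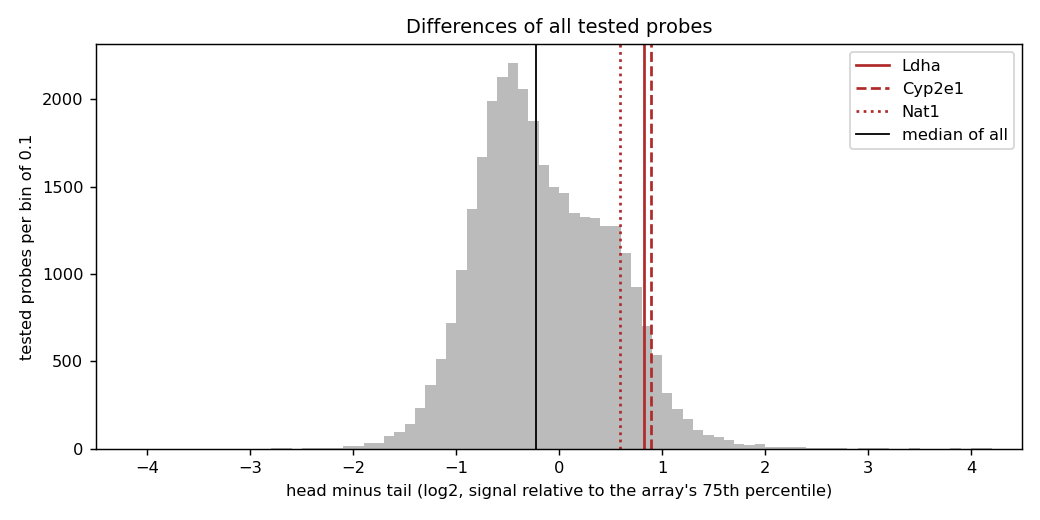
Head minus tail differences (log2) of the 32182 tested probes in bins of 0.1 (grey bars, number of probes), with those of Nat1 (0.59), Ldha (0.82) and Cyp2e1 (0.89) as red lines and the median of all probes (-0.23) in black. The red lines lie on the upper shoulder of the distribution, inside its range.

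The 3 genes differed in how their values varied over the 6 arrays. Region took 72.9% of the sum of squares of Nat1, the replicate number 21.7% and the remainder 5.41%. For Ldha the shares were 58.3%, 32.3% and 9.32%, and for Cyp2e1 40.8%, 35.1% and 24.0%. Over all tested probes together they were 32.7%, 50.0% and 17.3%. Region has 2 levels and the replicate number 3, which by itself gives the number a larger share of random variation. Which of them weighs more is therefore not read from these shares. The share of region was higher in each of the 3 genes than over all tested probes. Likeness to other named genes was measured as the root mean square difference between the 6 values of each probe after subtracting its mean. Closest to Ldha were Pld1, the signalling enzyme phospholipase D1, at 0.15, and the translation initiation factor Eif4b, at 0.30. The patterns nearest to Cyp2e1 were those of Ldha, at 0.41, and Pld1, at 0.43. This measure also grows with a gene's own spread over the arrays, which was widest for Cyp2e1 among the 3 genes. Nearest to Nat1 were Ndfip2, an adaptor of Nedd4-family ubiquitin ligases, at 0.16, and Mex3c, an RNA-binding ubiquitin ligase, at 0.21.

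Most other genes of the pathways were not among the named catalogue probes, and other probes were not looked up. The 6 lists held 82 entries, on pyruvate and lactate, glycolysis, genes that beta cells keep low, cytochrome P450, conjugating enzymes, and ethanol and aldehyde. Pdk3 was the single further gene with a named catalogue probe, and none of the 4 genes read passed the test. Pdk3, pyruvate dehydrogenase kinase 3, slows the entry of pyruvate into the mitochondrial citrate cycle and so acts at the same branch point as lactate dehydrogenase. Its log2 level on tail arrays 1 to 3 was -2.16, -3.43 and -3.67, and on head arrays 1 to 3 -2.57, -3.45 and -2.96. The regions overlapped widely, and the difference was 0.10 (SE 0.43, limma adjusted p = 0.902), with the head array higher in 1 of the 3 pairs. For Pdk3, as for Nat1, tail 1 was the highest tail array, whereas for Ldha and Cyp2e1 it was the lowest.

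**Figure D4:**
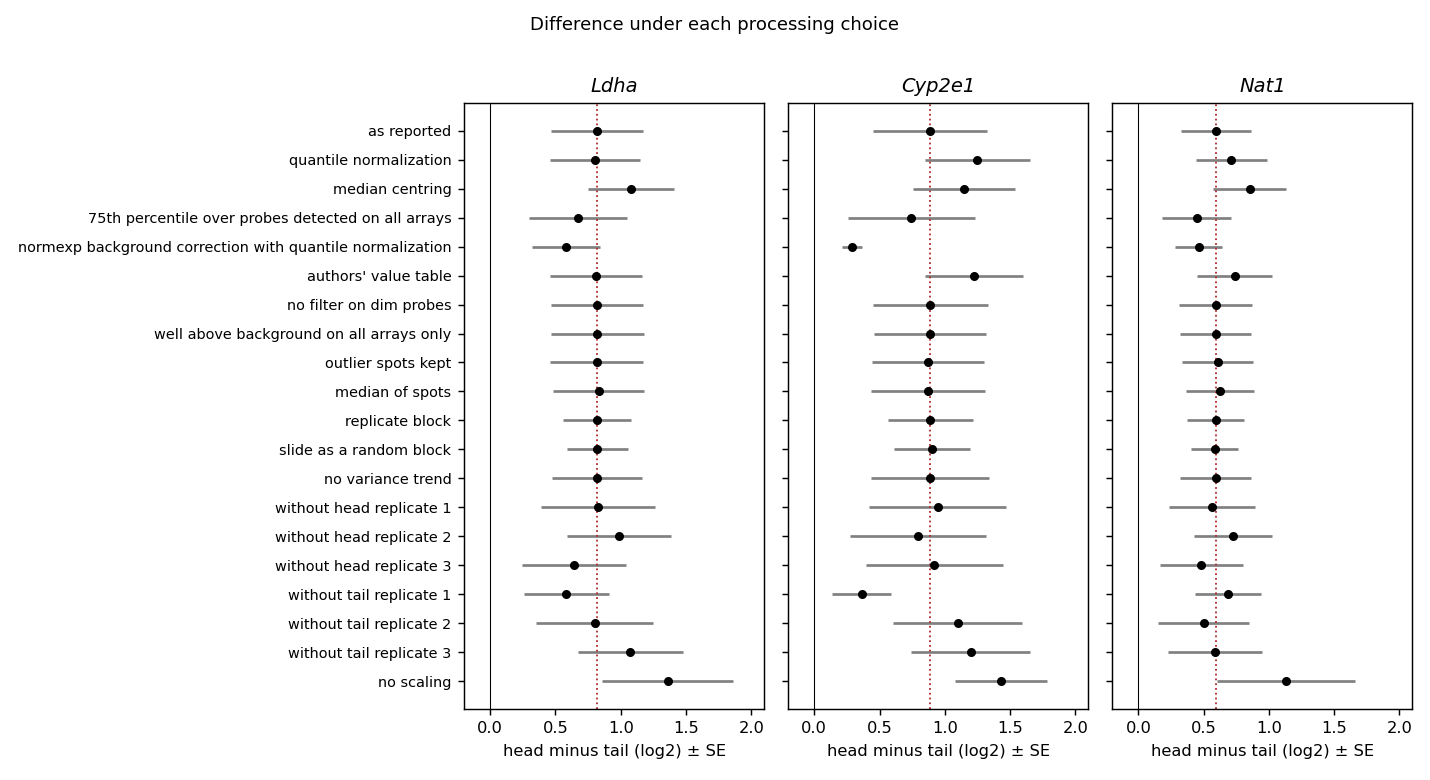
Head minus tail difference (log2, points) with its SE (grey lines) for Ldha, Cyp2e1 and Nat1 as reported and under 19 other processing choices; the red dotted line is the reported value. The points run from 0.58 to 1.36 for Ldha, 0.29 to 1.43 for Cyp2e1 and 0.45 to 1.13 for Nat1.

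Of the 19 other processing choices in that plot, 4 leave the estimate as it is by construction. Under the other 15 the head mean was the higher for each of the 3 genes. Those that leave out 1 array could not have turned the direction of Cyp2e1 and Nat1, whose regions did not overlap. Only 1 gene passed an adjusted p of 0.05 and only under 1 choice: with slide as a random block Ldha had a limma adjusted p of 0.0469. The correlation within slides behind that fit was estimated at -0.32, and 6086 probes passed under it, so the call is not read as a correction for slide.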

How the data were processed

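Rat islet RNA from 3 head and 3 tail samples was labelled with Cy3 and read on single-colour arrays. The intensity values were deposited by the authors as Agilent Feature Extraction 11.0.1.1 output, background-subtracted per the file headers and not scaled between arrays. The authors' deposited value table holds log2 values whose columns share the same median (5.04), and each column was closest to the scanner values of its own array (r 0.979 to 0.985). The treatment of its low values is unknown here. There were 0 columns of other samples.

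Control spots and outlier spots were left out (130 to 177 per array besides controls). Log2 spot signals were averaged per probe and each array's 75th percentile was subtracted. A probe was tested if well above background on at least 3 arrays, with at least 2 values per region, which left 32182. The regions were compared in limma 3.58.1 under R 4.3.3 (lmFit, then eBayes with trend), two-sided, and p-values were adjusted by Benjamini-Hochberg across the tested probes. Single genes were also tested by exact permutation with scipy 1.17.1. The fit was also run on simulated data in which the arrays were independent. That simulation held no slides and no replicate numbers, so it says nothing of their influence. The numbers were taken to pair the arrays, since the protocol divides each pancreas into both parts. Deviations from the region means correlated at 0.51, 0.75 and 0.29 over probes for numbers 1, 2 and 3. These correlations do not show that a pair shares a pancreas, which stays an assumption. Normexp (offset 50) used the median spot signal, since no mean signal is in the files.

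Gene names came from RefSeq accessions (GRCr8) and were looked up for the 50 catalogue probes only. The text names Ldha, Cyp2e1 and Nat1, the 2 named probes nearest in pattern to each, and named genes of fixed pathway lists. These genes and lists were chosen with earlier results of these data known. Which part of a transcript a probe matches is not stated in the files. The number of arrays limits the precision.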

Additional observations from a re-analysis of the deposited data

How the results depend on the processing

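Each of the 3 differences kept its direction under the 15 alternatives that can change its size. The other 4 (both filters on dim probes, the replicate block and no variance trend) change only its error or adjusted p. With slide as a random block Ldha passed the test (0.82, adjusted p = 0.0469), and Cyp2e1 (adjusted p = 0.0601) and Nat1 (adjusted p = 0.0557) did not. With the replicate number as a block no gene's call changed, and the differences were 0.82, 0.89 and 0.59 for Ldha, Cyp2e1 and Nat1. Leaving out 1 array at a time gave 0.58 to 1.07 for Ldha, 0.36 to 1.2 for Cyp2e1 and 0.48 to 0.73 for Nat1. For Cyp2e1 and Nat1 this could not have turned the direction, since their regions did not overlap. Without scaling, an alternative chosen after seeing the data, the differences were 1.36, 1.43 and 1.13, over a median of all probes that moved to 0.31. Normexp background correction with quantile normalization gave 0.29 for Cyp2e1, and quantile normalization alone 1.25. The number of probes passing, 0 as reported, was 1 with the replicate block, 2 in the authors' deposited table, 3 without scaling, 6086 with slide as a random block, and 0 to 3 when 1 array was left out, with 3 without tail replicate 3. The cause of these changes was not tested. Cyp2e1 on the tail arrays is the value that closeness to background limits most.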
